A study of Homo sapiens with 6 samples.

Results

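Immediate early genes are the genes that a cell transcribes first after a stimulus, and 38 of them, transcription factors and their regulators, were followed here in Daoy cells treated with thapsigargin. They were chosen by gene symbol: the Fos and Jun proteins, the EGR and NR4A factors, the KLF factors, the small Maf proteins, the IER genes, the mRNA binding proteins of the ZFP36 family, and MYC, SRF, PHLDA1, GEM, CITED2, HES1, CSRNP1, TIPARP, ARC and BTG2. Of the 38 genes, 35 had at least 1 probe set that the platform annotation names to that gene alone, with 79 such probe sets in all, against 19775 genes with a probe set of their own and 54675 probe sets on the whole array. EGR2, BTG2 and MAFK had none and were not analysed here. Probe sets had to reach a signal of 100 on 2 or more of the 6 arrays, which left 33 of these genes and 64 of their probe sets to test, among 12839 genes and 27616 probe sets in all. FOSB and IER5L were below that filter and are given as values.

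An immediate early gene needs no new protein to be switched on. Factors already present in the cell, such as SRF with its cofactors at the CArG box and CREB at the cyclic AMP response element, act on it within minutes of a growth factor, calcium or stress signal, and most of its transcripts are short-lived, in part because proteins of the ZFP36 family bind AU-rich elements in them and speed their decay. The proteins made, among them the Fos and Jun subunits of AP-1, the EGR zinc fingers and the NR4A orphan receptors, then act on a second set of genes. Thapsigargin blocks the calcium pump of the endoplasmic reticulum, which raises calcium in the cytosol, empties the store and sets off the unfolded protein response (UPR).

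Daoy is an established cell line from a human medulloblastoma. Cells were left untreated or were given 1 µM thapsigargin (Tg) for 3 h or for 8 h, with 2 arrays for each of the 3 groups, which the labels number replicate 1 and replicate 2. No vehicle control is named in the labels, so the untreated cells are the only comparison. No time before 3 h was sampled, so a rise that had ended by then would not be seen, and the time of a peak is not known. The deposited values are MAS5 signals on a linear scale, scaled by the authors to 1 trimmed mean (500.07 to 500.08 on the 6 arrays). Replicate 1 arrays had median signals of 84.8 to 103 and replicate 2 arrays of 69.7 to 75.3, and the hybridization controls split the same way (6547 to 9684 on replicate 1, 2230 to 2401 on replicate 2). For ACTB the 3' probe set over the 5' one, a sign of RNA integrity, gave a ratio of 2.75 to 3.49 on 5 arrays and 4.47 on Tg 3 h replicate 1. For GAPDH the same ratio was 1.24 on that array and 1.125 to 1.243 over the 6 arrays. Of 14 markers of medulloblastoma and neural cells on the array, 12 passed the filter, VIM, TUBB3 and ZIC1 among them, while ATOH1 and SYP did not. No marker of immune cells, of 6, reached a signal of 100 on both arrays of any group. Of 6 astrocyte and oligodendrocyte markers, GFAP, AQP4, MBP and MOG were below the filter, while ALDH1L1 and OLIG2 passed it, and the summed signal of the list was 355.0 and 374.8 in untreated cells, 680.3 and 595.2 after 3 h and 639.2 and 650.9 after 8 h. OLIG2 was called higher at 8 h in the blocked fit described next (1.90, adjusted p = 0.00911), against 4.76% of all genes. The part of OLIG2 in the results below was not tested. Of 7 fibroblast markers PDGFRA and PDGFRB were below the filter and 5 passed it, among them COL1A1, with signals of 17638.9 to 33447.7. Of 7 endothelial markers 4 passed, while CDH5, VWF and CLDN5 did not. The blocked fit called 3.79% of all genes lower at 8 h. Among them were SOX2, SOX9 and GLI2 of the medulloblastoma and neural list, and LUM of the fibroblast list. Their part in the results was not tested either. Of 10 UPR genes used to check the treatment, limma called 1 higher at 3 h and 4 higher at 8 h, and the blocked fit 6 and 8. Of all genes limma called 0.0701% higher at 3 h and 0.646% at 8 h, and the blocked fit 1.17% and 4.76%. DDIT3, which encodes CHOP, had signals of 405.4 and 1654.4 in untreated cells, 19271.4 and 15024.5 after 3 h and 20008.8 and 15123.0 after 8 h.

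Each gene was read from its brightest probe set, by mean log2 signal. Differences are log2 fold changes of group means, and each was tested with limma on the log2 signals of all 6 arrays, with p-values adjusted over all 27616 probe sets by the Benjamini-Hochberg method and a threshold of 0.05. Because every replicate number holds all 3 groups and arrays of 1 number deviated together, a second adjusted p is given, from a fit that adds the replicate number as a term (the blocked fit). The local pooled error test, which the study's methods name, was run as well. Both time points are compared with the same 2 untreated arrays, so their differences are not independent of each other. All levels are of RNA: a higher level may come from transcription or from slower decay of the transcript, which arrays cannot tell apart.

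By the size of the difference alone, the 33 genes fell into 4 classes. In 9 genes the level was at least 2-fold higher at 3 h (a log2 fold change of 1 or more) and the log2 fold change at 8 h was under 0.5 of that at 3 h. They are called transient here, a word for the level and not for the decay of the RNA: FOSL2, EGR3, NR4A1, NR4A2, NR4A3, MYC, GEM, CITED2 and TIPARP. In 6 genes the difference at 8 h was 0.5 or more of that at 3 h, and these are called sustained: KLF2, KLF4, KLF5, MAFF, PHLDA1 and ARC. No gene first reached 2-fold at 8 h. In 16 genes both differences stayed under 2-fold, and FOS and HES1 were lower by 2-fold or more at 8 h without having been 2-fold higher at 3 h. With signals under 100 raised to 100 the 8 h value of FOS was -0.84, under 2-fold. The classes are descriptions with no test. MYC, KLF2 and FOSL2 lay just inside the 2-fold line at 3 h, with log2 fold changes of 1.01, 1.02 and 1.04, and FOSL1 and KLF10 just outside it, with 0.81 and 0.75. The line between transient and sustained lay farther off: the highest share among transient genes was 0.403 in NR4A3 and the lowest among sustained genes was 0.884 in KLF4. These shares are of the brightest probe set, and the others of NR4A2 gave 0.485 and 0.612, the last on the sustained side.

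**Figure D1:**
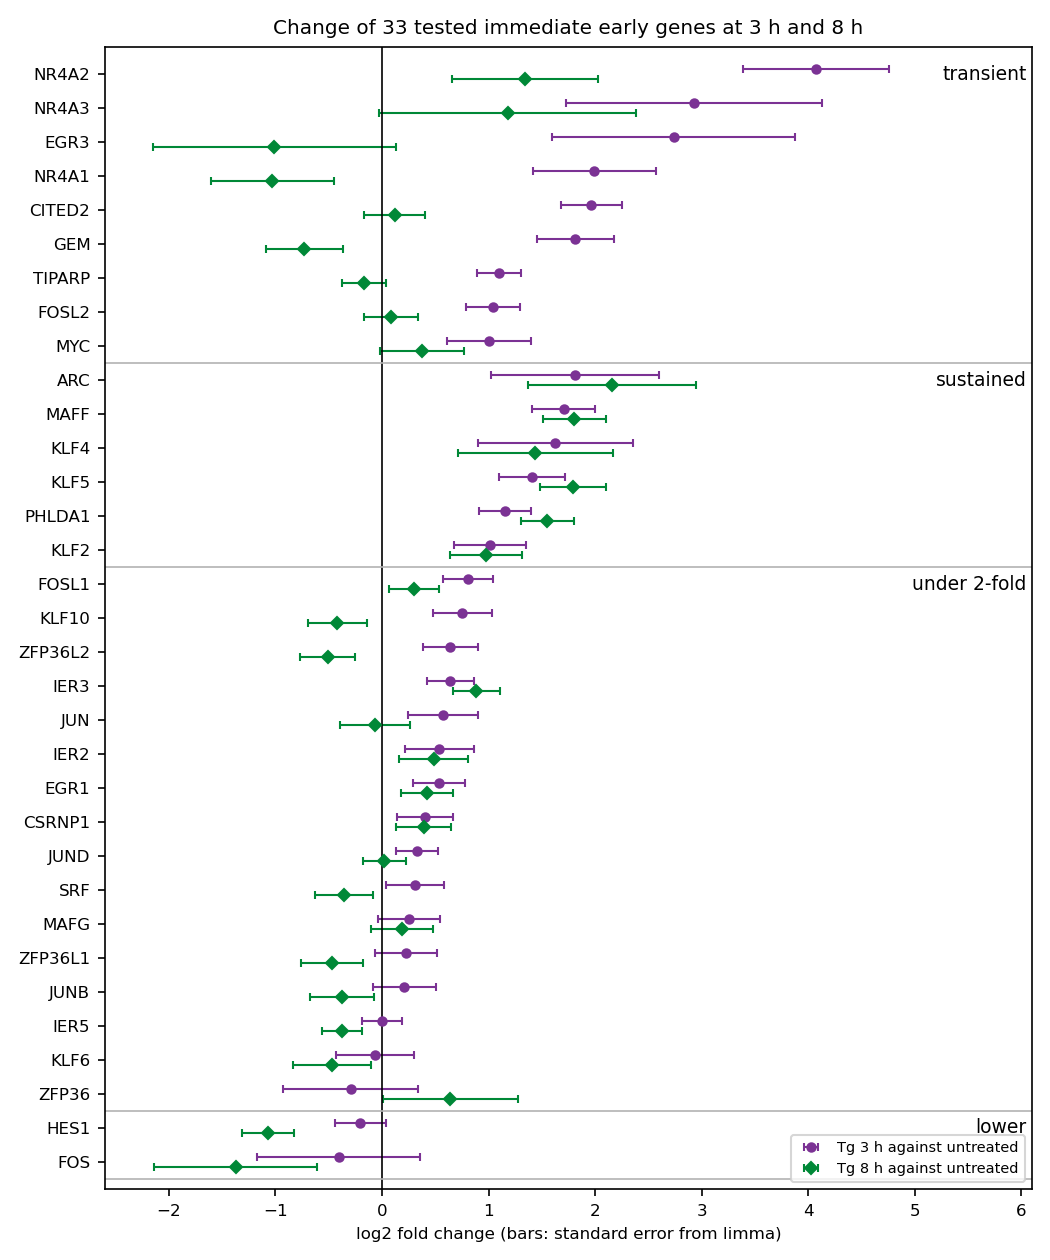
Log2 fold change of the 33 tested immediate early genes at Tg 3 h (purple circles) and Tg 8 h (green diamonds) against untreated cells, with bars of 1 standard error from limma, in the 4 classes. In the transient genes the 8 h value lies at 0.37 or below, except in NR4A2 (1.34) and NR4A3 (1.18), whereas in the 6 sustained genes it lies within 0.40 of the 3 h value.

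After 3 h of thapsigargin, the level of these genes was mostly higher. The median log2 fold change over the 33 genes was 0.75, against -0.02 over all 12839 genes, and the value was above 0 in 29 and below 0 in 4. In 23 of 33 genes (69.7%) both Tg 3 h arrays lay above both untreated arrays, against 14.0% of all genes, and in 0 did both lie below, against 16.5%. The 23 include EGR3 and NR4A3, which passed the filter only through their 3 h arrays, so the filter itself placed them there. NR4A2 and ARC, also among the 23, passed it through treated arrays alone. The limma test called 0 of the 33 genes higher and 0 lower at 3 h, where it called 0.0701% of all genes higher and 0% lower. At an unadjusted p under 0.05 it gave 17 higher, EGR3 and NR4A3 among them, and 0 lower, against 3.26% and 1.24% of all genes. The blocked fit called 11 of 33 genes higher (33.3%): FOSL1, FOSL2, IER3, NR4A2, KLF5, MAFF, MYC, PHLDA1, GEM, CITED2 and TIPARP. It called 1.17% of all genes higher, and 0 of the 33 lower against 0.0779% of all genes. Without limma's intensity trend the blocked fit called 0 of the 33. The local pooled error test called 5 higher (15.2%, against 0.296% of all genes), NR4A2, KLF4, MAFF, GEM and CITED2, and 0 lower, against 0% of all genes. Of the 11 calls of the blocked fit, 3 held without Tg 3 h replicate 1 (MAFF, PHLDA1 and CITED2), the array with the highest ACTB ratio, and the part of that ratio in the calls was not tested. Without untreated replicate 1 the count was 5 (NR4A2, MAFF, PHLDA1, GEM and CITED2).

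The NR4A genes encode orphan nuclear receptors that act without a known hormone. NR4A2 (Nurr1) showed the largest difference at 3 h among the 33 genes: its signal was 81.1 and 77.2 on the untreated arrays, 2670.7 and 664.4 at 3 h and 334.1 and 120.1 at 8 h. Both Tg 3 h arrays were thus far above both untreated arrays, and the 8 h arrays lay in between. The log2 fold change was 4.07 at 3 h (standard error (SE) 0.69, limma adjusted p = 0.175, blocked fit 0.00174), a 16.8-fold difference, and 1.34 at 8 h (SE 0.69, adjusted p = 0.584, blocked fit 0.0967). Untreated signals were under 100, the minimum of the filter, and with every signal under 100 raised to 100 the values were 3.74 and 1.00. All 3 probe sets of NR4A2 passed in the blocked fit at 3 h, with log2 fold changes of 4.07, 4.54 and 5.46. At 8 h the dimmer ones gave 2.20 (blocked fit adjusted p = 0.0787) and 3.34 (0.0443), so the last also passed at 8 h. With low signals raised to 100 these 8 h values were 1.34 and 1.18.

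NR4A1 (Nur77) had signals of 199.6 and 136.0 in untreated cells, 1039.8 and 413.9 after 3 h and 52.4 and 124.1 after 8 h. The 3 h arrays were above and the 8 h arrays below both untreated arrays. Its log2 fold change was 1.99 at 3 h (SE 0.58, adjusted p = 0.826, blocked fit 0.165) and -1.03 at 8 h (adjusted p = 0.626, blocked fit 0.313). Both tested probe sets of NR4A1 carry the manufacturer's mark for probes that may bind other transcripts (_x_at), so its value is less certain. The dimmer of them gave 1.89 at 3 h and 0.72 at 8 h, against -1.03 on the brighter. NR4A3 (NOR1) was dim, with 59.6 and 7.9 in untreated cells, 253.6 and 107.6 after 3 h and 47.5 and 50.8 after 8 h. Only the 3 h arrays exceeded 100, and with low signals raised to 100 its log2 fold change was 0.72 at 3 h, against 2.93 (SE 1.20) as measured. On their tested probe sets all 3 NR4A genes thus had their highest signals on the 3 h arrays, and against untreated cells only NR4A2 passed the blocked fit.

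GEM encodes a small GTP binding protein that restrains voltage-gated calcium channels. Its signal was 1897.5 and 833.9 on the untreated arrays, 4949.0 and 3943.2 at 3 h and 769.7 and 749.5 at 8 h. The untreated arrays differed from each other more than the treated pairs did, yet the 3 h arrays lay above both and the 8 h arrays below both. The log2 fold change was 1.81 at 3 h (SE 0.36, adjusted p = 0.285, blocked fit 0.00686) and -0.73 at 8 h (adjusted p = 0.568, blocked fit 0.114).

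CITED2 encodes a protein that binds the coactivators CBP and p300 and competes there with hypoxia-inducible factors. Its signals were 391.2 and 639.0 in untreated cells, 2118.4 and 1795.8 after 3 h and 487.9 and 603.6 after 8 h. The 8 h arrays lay between the untreated ones. The log2 fold change was 1.96 at 3 h (SE 0.29, adjusted p = 0.105, blocked fit 0.00333), a 3.90-fold difference, and 0.12 at 8 h. Its second tested probe set gave 1.60 and 0.16.

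TIPARP encodes a poly-ADP-ribose polymerase family member that is induced by the dioxin receptor and dampens it. It had 1519.8 and 1649.3 in untreated cells, 3499.0 and 3293.9 after 3 h and 1241.8 and 1594.4 after 8 h. Replicates were close at 3 h, and the log2 fold change was 1.10 (SE 0.21, adjusted p = 0.246, blocked fit 0.00780), against -0.17 at 8 h.

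FOSL2 (Fra-2), an AP-1 subunit that lacks the strong activation domain of FOS, had 1709.6 and 1576.5 in untreated cells, 4308.6 and 2645.0 after 3 h and 1721.0 and 1756.8 after 8 h. Its log2 fold change was 1.04 at 3 h (SE 0.26, adjusted p = 0.523, blocked fit 0.0292) and 0.08 at 8 h. The 5 probe sets of FOSL2 ranged from 0.84 to 1.09 at 3 h and from -0.63 to 0.08 at 8 h, and 2 of them passed in the blocked fit at 3 h.

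MYC, the growth-promoting transcription factor, had 782.2 and 1647.3 in untreated cells, 1930.4 and 2698.3 after 3 h and 1141.3 and 1890.8 after 8 h. Replicate 2 was the higher at each time, and the 3 h value was above the untreated one in both replicates, by 1.30 and 0.71. The mean log2 fold change was 1.01 (SE 0.39, adjusted p = 1.00, blocked fit 0.0243) at 3 h and 0.37 at 8 h. EGR3, a zinc finger factor of the EGR family, had 44.7 and 46.3 in untreated cells, 317.1 and 290.0 after 3 h and 72.8 and 7.0 after 8 h. It exceeded 100 on the 3 h arrays alone and passed no test at 3 h (log2 fold change 2.74, SE 1.14, adjusted p = 1.00, blocked fit 0.344). With low signals raised to 100 that value was 1.60, and EGR3 then passed in the blocked fit. That setting put all its untreated and 8 h arrays at 100, which removes their spread, so no conclusion is drawn from the pass.

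**Figure D2:**
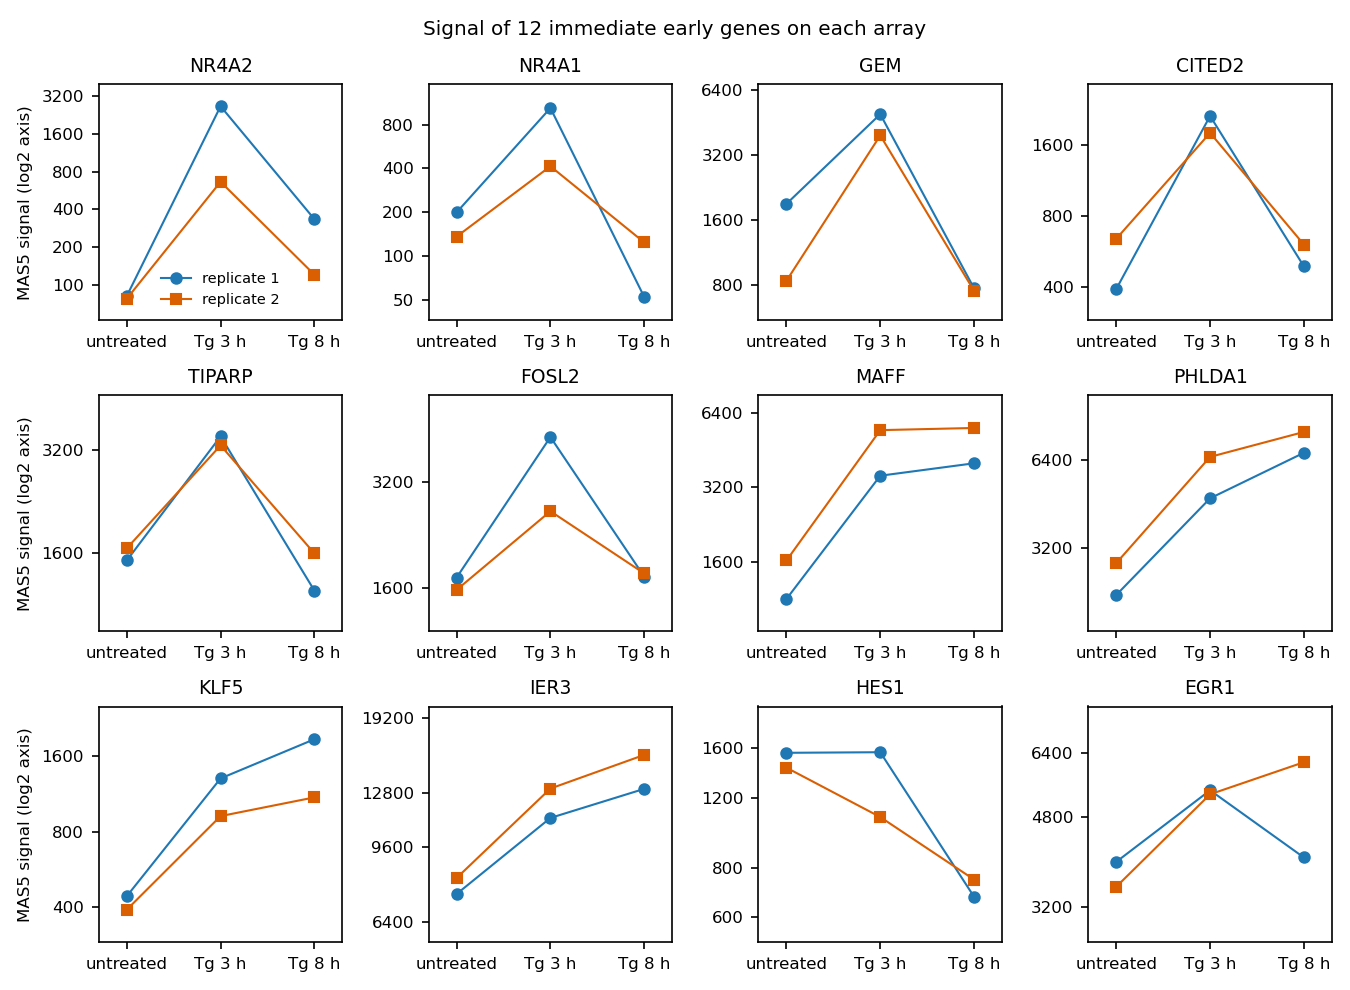
MAS5 signal of 12 immediate early genes (vertical log2 axis, a different range in each panel) on the untreated, Tg 3 h and Tg 8 h arrays, with lines joining arrays of the same replicate number (blue circles replicate 1, orange squares replicate 2). NR4A2, NR4A1, GEM, CITED2, TIPARP and FOSL2 were highest at 3 h of the 3 groups in both replicates. MAFF, PHLDA1, KLF5 and IER3 were higher at both times, HES1 was lower at 8 h, and EGR1 differed between replicates at 8 h.

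The sustained class was led by MAFF, a small Maf protein that has no activation domain of its own and binds DNA as a dimer with itself or with partners such as the NRF factors. Its signals were 1128.1 and 1615.6 in untreated cells, 3562.4 and 5450.6 after 3 h and 4000.2 and 5562.6 after 8 h. All 4 treated arrays lay above both untreated arrays, and replicate 2 was the higher in each group. The log2 fold change was 1.71 at 3 h (SE 0.30, adjusted p = 0.185, blocked fit 0.000200) and 1.80 at 8 h (SE 0.30, adjusted p = 0.0469, blocked fit 5.96e-05), a 3.49-fold rise at 8 h. Within replicates 1 and 2 the 8 h values were 1.83 and 1.78.

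The promoter of MAFF is shown because MAFF had the smallest adjusted p of the 33 genes in the blocked fit at both times and because its promoter holds a full cyclic AMP response element (CRE, TGACGTCA), the site of CREB and ATF proteins. JUND, which holds the same element and stayed under 2-fold, is set beside it. Each sequence is the 250 bases before the first listed start site, 5′ to 3′ on the gene's strand, from RefSeq on GRCh38.p14 (MAFF at chr22:38201744-38201993, plus strand; JUND at chr19:18281623-18281872, minus strand), with the CRE in capitals.
MAFF: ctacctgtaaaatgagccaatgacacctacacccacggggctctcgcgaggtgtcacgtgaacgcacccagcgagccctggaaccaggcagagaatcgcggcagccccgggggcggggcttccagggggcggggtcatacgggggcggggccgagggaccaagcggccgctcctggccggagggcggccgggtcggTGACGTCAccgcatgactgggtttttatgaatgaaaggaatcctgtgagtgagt
JUND: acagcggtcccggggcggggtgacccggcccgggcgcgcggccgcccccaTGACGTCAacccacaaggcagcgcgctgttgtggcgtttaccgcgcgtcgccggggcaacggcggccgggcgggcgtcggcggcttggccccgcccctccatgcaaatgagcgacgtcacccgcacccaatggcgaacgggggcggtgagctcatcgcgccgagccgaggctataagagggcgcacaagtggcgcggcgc
In MAFF the element lies 54 to 47 bases before the start, and in JUND 200 to 193 bases before it. Of the 33 tested genes, 24 had a promoter in the RefSeq set, while NR4A2, FOSL1, IER3, ZFP36L2, GEM, MYC, KLF10, EGR3 and ARC are not among the 24. Of these 24, 3 held a CRE on either strand (JUND, MAFF and ZFP36L1, the last at its second start), against 1.65% of the 35116 promoters in that set. Several of the genes have more than 1 promoter there, and a gene was counted if any of them matched. The share of the 35116 counts each promoter alone, so the figures are not like for like. The core TGACG, part of the CRE, was found in 16 of the 24, against 21.2% of promoters. A match describes letters and does not show that a factor bound.

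PHLDA1, which encodes a pleckstrin homology-like protein, had signals of 2211.6 and 2844.3 in untreated cells, 4736.6 and 6565.3 after 3 h and 6779.4 and 7990.0 after 8 h. Both 8 h arrays were above both 3 h arrays, which were above both untreated arrays. The log2 fold change was 1.15 at 3 h (SE 0.24, adjusted p = 0.361, blocked fit 0.00202) and 1.55 at 8 h (SE 0.24, adjusted p = 0.0422, blocked fit 0.000135). All 6 probe sets of PHLDA1 passed at 8 h in both fits, with log2 fold changes of 1.55 to 2.18. They read RNA of 1 gene and are not replicates.

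KLF5, a zinc finger factor of proliferating epithelial cells, had 441.8 and 390.2 in untreated cells, 1306.8 and 923.8 after 3 h and 1874.9 and 1097.4 after 8 h. Treated and untreated arrays did not overlap, at 3 h (2.65-fold, adjusted p = 0.396, blocked fit 0.00726) or at 8 h (3.45-fold, SE 0.31 on the log2 scale, adjusted p = 0.0575, blocked fit 0.000685). KLF4, a zinc finger factor that restrains proliferation and is used to reprogram cells to pluripotency, had 638.3 and 4052.3 on the untreated arrays, 3740.2 and 6596.9 at 3 h and 4131.5 and 4599.2 at 8 h. Untreated replicate 2 was already in the range of the treated arrays, so the 8 h difference was 2.69 in replicate 1 and 0.18 in replicate 2. Neither limma nor the blocked fit called KLF4 (1.63 at 3 h, SE 0.72, blocked fit adjusted p = 0.174; 1.44 at 8 h, blocked fit adjusted p = 0.0936), whereas the local pooled error test called it at both times (adjusted p = 0.0438 and 0.0322). Without untreated replicate 2, limma called it at 3 h and at 8 h.

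KLF2, a factor of quiescent endothelial and T cells, had 170.1 and 196.5 in untreated cells, 434.5 and 314.2 after 3 h and 439.4 and 295.0 after 8 h, and passed no test (1.02 at 3 h, blocked fit adjusted p = 0.195; 0.98 at 8 h, blocked fit adjusted p = 0.0802). ARC, a protein of neuronal synapses, had 66.5 and 24.1 in untreated cells, 119.7 and 165.0 after 3 h and 98.9 and 323.7 after 8 h. All 4 treated arrays lay above both untreated arrays, but all signals were low and the replicates wide apart. As measured the log2 fold change was 1.81 at 3 h and 2.16 at 8 h (SE 0.79, blocked fit adjusted p = 0.138), and with low signals raised to 100 it was 0.49 and 0.85.

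After 8 h the genes as a group were near the untreated level. The median log2 fold change was 0.12, against -0.09 over all genes, with 19 values above and 14 below 0. Limma called 2 of the 33 genes higher (6.06%), MAFF and PHLDA1, and 0.646% of all genes. It called 0 lower against 0.210% of all genes, with 6 higher and 1 lower at an unadjusted p under 0.05, against 5.44% and 6.64% of all genes. The 2 calls lay close to the threshold: PHLDA1 was lost (adjusted p over 0.05) when any 1 of the 6 arrays was left out, and MAFF when any but untreated replicate 2 was. The blocked fit called 4 higher (12.1%), IER3, KLF5, MAFF and PHLDA1, and 4.76% of all genes, and it kept these 4 when any 1 array was left out. It called 1 lower (3.03%), HES1, and 3.79% of all genes. Without the intensity trend it called 0 in either direction. The local pooled error test called 4 higher (KLF4, KLF5, MAFF and PHLDA1), against 1.05% of all genes, and 0 lower, against 0.210%. Both Tg 8 h arrays lay above both untreated arrays in 12 of 33 genes (36.4%), against 15.3% of all genes, and below both in 7 (21.2%), against 26.7%. The 12 include NR4A2 and ARC, which passed the filter through treated arrays alone.

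Of the 16 genes under 2-fold, IER3 (IEX-1), a stress gene that modulates survival and NF-κB signaling, passed in the blocked fit at both times. Its signals were 7436.6 and 8106.4 in untreated cells, 11196.8 and 13114.7 after 3 h and 13091.3 and 15715.2 after 8 h. The treated arrays all lay above both untreated arrays, and the log2 fold change was 0.64 at 3 h (SE 0.22, adjusted p = 1.00, blocked fit 0.0256) and 0.89 at 8 h (adjusted p = 0.172, blocked fit 0.00146). IER2, a nuclear protein, had 2159.7 and 4294.1 in untreated cells, 4490.4 and 4337.9 after 3 h and 3721.1 and 4872.0 after 8 h, and IER5, a regulator of heat shock factor, had 0.00 at 3 h and -0.38 at 8 h on the log2 scale.

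Among the AP-1 subunits, FOSL1 (Fra-1) was the other Fos protein that passed in the blocked fit at 3 h, with 1924.1 and 1349.8 in untreated cells, 3109.5 and 2562.6 after 3 h and 1988.9 and 1990.4 after 8 h (log2 fold change 0.81, SE 0.23, adjusted p = 0.826, blocked fit 0.0471). JUN, the main partner of the Fos proteins, had 3892.7 and 3216.3 in untreated cells, 7541.1 and 3653.7 after 3 h and 3533.1 and 3250.2 after 8 h. The 3 h difference was 0.95 in replicate 1 and 0.18 in replicate 2, and the mean of 0.57 (SE 0.33) passed neither fit. That probe set carries the same mark (_x_at) as those of NR4A1, so its value is less certain. The 4 probe sets of JUN spread from 0.14 to 1.35 at 3 h, and 1 of them was lower at 8 h in the blocked fit (-0.65, adjusted p = 0.0400). The one with 1.35 gave 0.06 at 8 h, the shape of the transient class, and passed neither fit. JUNB (0.21 at 3 h, -0.37 at 8 h) and JUND (0.33 and 0.02) passed no test.

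EGR1, the classic serum-induced zinc finger factor, and SRF, the factor that binds the CArG box, are shown with their promoters because both hold that element more than once. The capitals mark the CArG boxes in the 250 bases before the first listed start (GRCh38.p14, EGR1 at chr5:138465229-138465478 and SRF at chr6:43171019-43171268, both plus strand).
EGR1: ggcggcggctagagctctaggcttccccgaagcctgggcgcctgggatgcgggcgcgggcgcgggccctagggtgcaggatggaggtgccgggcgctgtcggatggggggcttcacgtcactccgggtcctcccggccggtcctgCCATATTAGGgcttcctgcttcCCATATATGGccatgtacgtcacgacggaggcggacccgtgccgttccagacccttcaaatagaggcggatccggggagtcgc
SRF: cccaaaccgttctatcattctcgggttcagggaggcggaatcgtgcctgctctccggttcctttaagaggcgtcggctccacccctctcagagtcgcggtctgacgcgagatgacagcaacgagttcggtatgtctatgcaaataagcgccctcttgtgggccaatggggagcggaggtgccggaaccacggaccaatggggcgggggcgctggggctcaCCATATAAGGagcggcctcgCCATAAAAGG
CArG boxes were found in 1.16% of the 35116 promoters and in these 2 of the 24 tested genes with a promoter. In EGR1 they lay 105 to 96 and 83 to 74 bases before the start, and in SRF 30 to 21 and 10 to 1 bases before it. EGR1 had 3914.9 and 3499.8 in untreated cells, 5404.9 and 5307.9 after 3 h and 3992.3 and 6133.6 after 8 h. The 3 h arrays exceeded both untreated arrays, but the log2 fold change of 0.53 (SE 0.24) passed neither fit (blocked fit adjusted p = 0.293), nor did 0.42 at 8 h. SRF had 726.3 and 922.3 in untreated cells, 1023.7 and 1005.9 after 3 h and 512.1 and 796.3 after 8 h (0.31 and -0.36), and passed neither.

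Other elements were searched in the same windows, again with genes counted beside shares of single promoters. The EGR site GCGNGGGCG was found in EGR1, KLF2, KLF4, KLF6 and SRF, 5 of 24, against 8.41% of promoters. The AP-1 site TGANTCA was found in 0 of 24, against 6.57%, and so were the amino acid response core TGATGNAA of ATF4 (3.14%) and the core TGACGTGG that ATF6 and XBP1 bind (0.612%). The short site CCACG of the ER stress element was found in 13 of 24, against 33.5%, and the κB site in MAFF and SRF, each at a second start, against 5.21%. Motifs can overlap, as TGACG does with the CRE.

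Of the KLF factors under 2-fold, KLF10, an early target of TGF-β, had 1948.7 and 1784.6 in untreated cells, 3653.4 and 2704.8 after 3 h and 1773.2 and 1096.8 after 8 h. The 3 h arrays lay above and the 8 h arrays below both untreated arrays (0.75, blocked fit adjusted p = 0.0736, and -0.42, blocked fit adjusted p = 0.171). KLF6, a factor of wound responses, gave -0.07 at 3 h and -0.47 at 8 h. Of the mRNA decay proteins, ZFP36L2 had 709.1 and 940.3 in untreated cells, 1196.9 and 1357.1 after 3 h and 490.1 and 672.2 after 8 h, and ZFP36L1 had 7743.6 and 7253.9 in untreated cells, 10717.6 and 7182.9 after 3 h and 6793.7 and 4308.4 after 8 h. Neither passed against untreated cells at either time. ZFP36 itself (tristetraprolin) was dim, with 75.3 and 137.3 in untreated cells, 118.3 and 58.1 after 3 h and 121.7 and 206.3 after 8 h. MAFG, a second small Maf protein (0.25 and 0.19), and CSRNP1, a nuclear protein induced by AXIN1 (0.40 and 0.39), passed no test.

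FOS and HES1 made up the class lower at 8 h. Of the transient genes NR4A1 (-1.03) and EGR3 (-1.01) were also 2-fold lower at 8 h, but both rest on signals under 100 and came to -0.56 and 0.00 with these raised to 100. HES1, a repressor downstream of Notch, had 1555.3 and 1426.7 in untreated cells, 1560.6 and 1071.8 after 3 h and 675.5 and 746.1 after 8 h. Both 8 h arrays were below all the other arrays, and the log2 fold change was -0.20 at 3 h and -1.07 at 8 h (SE 0.24, adjusted p = 0.131, blocked fit 0.00917). Its second tested probe set had 1721.6 and 2031.5 in untreated cells, 1021.2 and 705.3 after 3 h and 494.3 and 673.3 after 8 h, and passed at 8 h in both fits (-1.70, adjusted p = 0.0429, blocked fit 0.00238). At 3 h the pair of probe sets differed, with -0.20 and -1.14. The blocked call of HES1 at 8 h was lost without either untreated array and without Tg 8 h replicate 1. FOS, the founding subunit of AP-1, had 213.6 and 358.9 in untreated cells, 139.8 and 312.0 after 3 h and 47.5 and 240.0 after 8 h. It was lower in both replicates at 8 h, by unequal amounts, and passed no test (-1.37, SE 0.77, adjusted p = 0.622, blocked fit 0.0982).

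The step between 3 h and 8 h was tested directly. The median log2 fold change of Tg 8 h against Tg 3 h was -0.58 over the 33 genes, against -0.06 over all genes, with 6 values above and 27 below 0. Both Tg 8 h arrays lay below both Tg 3 h arrays in 19 of 33 genes (57.6%), against 22.6% of all genes, and above both in 2 (6.06%), ZFP36 and PHLDA1, against 14.0%. The 19 include EGR3 and NR4A3, which passed the filter only through their 3 h arrays, so the filter placed them there. Limma called 0 lower and 0 higher, as it did among all genes (0% each), and without adjustment (p under 0.05) it gave 12 lower, against 5.05% of all genes, and 0 higher, against 2.77%. The blocked fit called 10 of 33 lower (30.3%) and 1.72% of all genes, and 0 higher against 1.53%. Without the intensity trend it called 0. The 10 were FOSL2, NR4A1, NR4A2, KLF10, ZFP36L1, ZFP36L2, GEM, CITED2, HES1 and TIPARP. They include 6 of the 9 transient genes and 0 of the 6 sustained ones, a split that the classes themselves favour, since they used the same 3 h and 8 h values. The local pooled error test called 3 lower (9.09%, against 0.148% of all genes), NR4A2, GEM and CITED2, and 0 higher, against 0.164%. Without Tg 3 h replicate 1 the blocked fit called GEM alone.

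The largest of these steps that passed in the blocked fit was that of NR4A1, -3.02 (SE 0.58, adjusted p = 0.306, blocked fit 0.0212). With signals under 100 raised to 100 it was -2.56, smaller than that of NR4A2, and the dimmer probe set of NR4A1 gave -1.18 and did not pass (blocked fit adjusted p = 0.371). NR4A2 followed with -2.73 (SE 0.69, adjusted p = 0.428, blocked fit 0.0136) and GEM with -2.54 (SE 0.36, adjusted p = 0.223, blocked fit 0.00238). GEM was 5.82-fold lower at 8 h than at 3 h. CITED2 fell by 1.85 (blocked fit adjusted p = 0.00656), TIPARP by 1.27 (0.00614) and KLF10 by 1.17 (0.00881) in the blocked fit. ZFP36L2 followed with -1.15 (blocked fit adjusted p = 0.0123), FOSL2 with -0.96 (0.0281), HES1 with -0.87 (0.0469) and ZFP36L1 with -0.70 (0.0434). MYC (-0.64, blocked fit adjusted p = 0.0917), EGR3 (-3.75) and NR4A3 (-1.75, 0.482), the other 3 transient genes, did not pass. In the sustained class the step was -0.19 to 0.40.

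**Figure D3:**
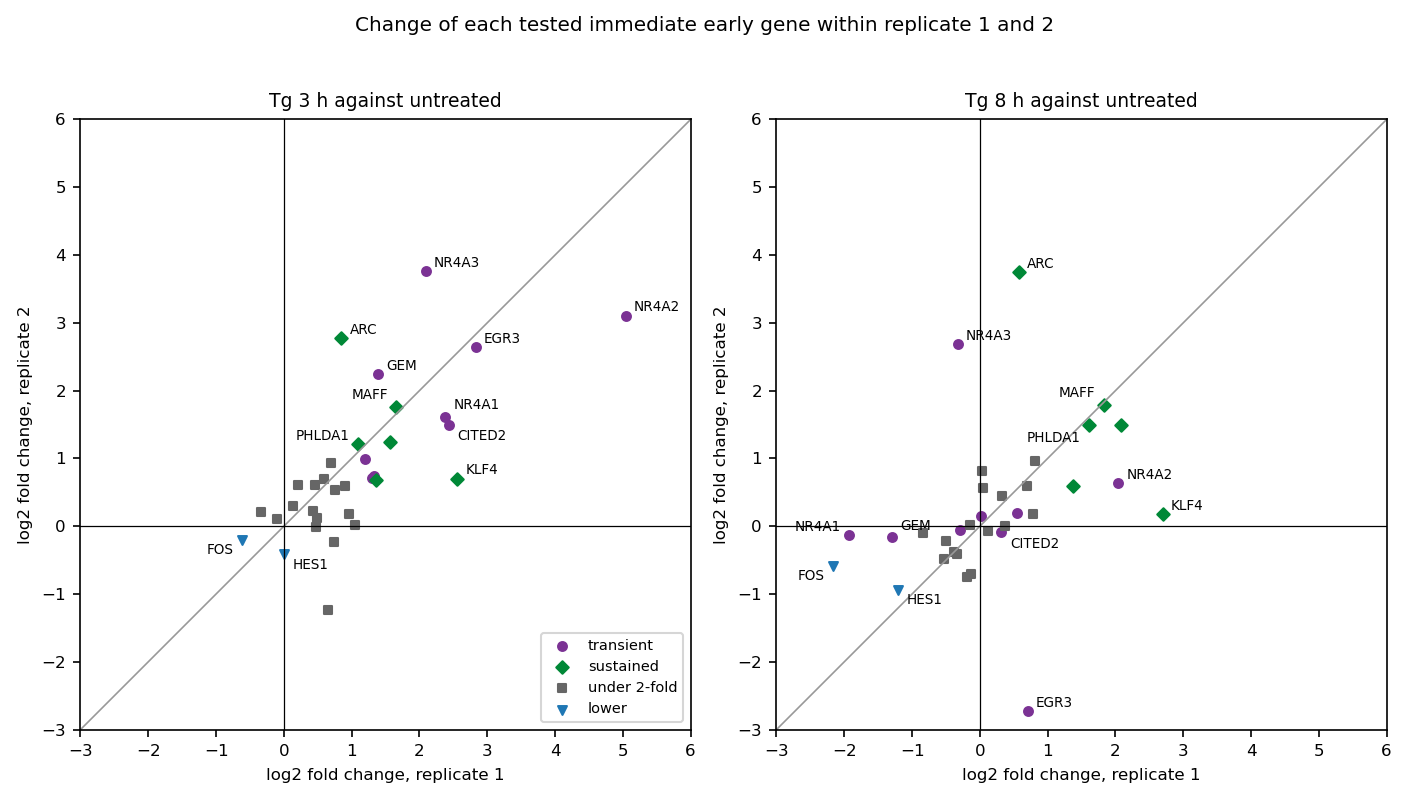
Log2 fold change of each of the 33 tested genes within replicate 1 (horizontal axis) and replicate 2 (vertical axis) at Tg 3 h (left) and Tg 8 h (right) against the untreated array of the same number, coloured by class, with the line of equal values. MAFF and PHLDA1 lie near the line at both times, whereas KLF4, ARC, NR4A3 and EGR3 lie far from it at 8 h.

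The spread between replicates was also compared with that of other genes, with no test. The median absolute log2 difference between the 2 arrays of a group was 0.46 at 3 h and 0.46 at 8 h over the 33 genes, against 0.35 and 0.33 over all genes, and 0.34 in untreated cells, against 0.36. The largest was 2.01 at 3 h, in NR4A2, 3.38 at 8 h, in EGR3, and 2.92 in untreated cells, in NR4A3, and in the last 2 the lower signal was under 10. NR4A1, NR4A2, FOSL2 and JUN, and also GEM, CITED2, NR4A3, KLF5 and KLF10, had the higher 3 h signal on Tg 3 h replicate 1. MAFF, MYC and PHLDA1 were among those with the higher one on replicate 2. Tg 3 h replicate 1 had the ACTB ratio of 4.47 but a GAPDH ratio of 1.24, within the range of the other arrays. The part of that array's RNA in these values was not tested.

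Several probe sets were tested for 17 of the 33 genes, and 1 for the other 16. In NR4A2, CITED2, FOSL2, PHLDA1, MAFF, KLF5 and KLF4 every tested probe set was higher at 3 h, whether or not it passed. MAFF had a second probe set with 1.56 at 3 h and 1.45 at 8 h (adjusted p = 0.0931 at 8 h, blocked fit 0.00214), and KLF5 one with 1.32 and 1.34. For KLF4 the second gave 0.95 and 0.90. Probe sets of 1 gene differed most in NR4A2 at 8 h (1.34 to 3.34) and in NR4A1 at 8 h (-1.03 to 0.72), and at 3 h in NR4A2 (4.07 to 5.46), JUN and HES1.

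**Figure D4:**
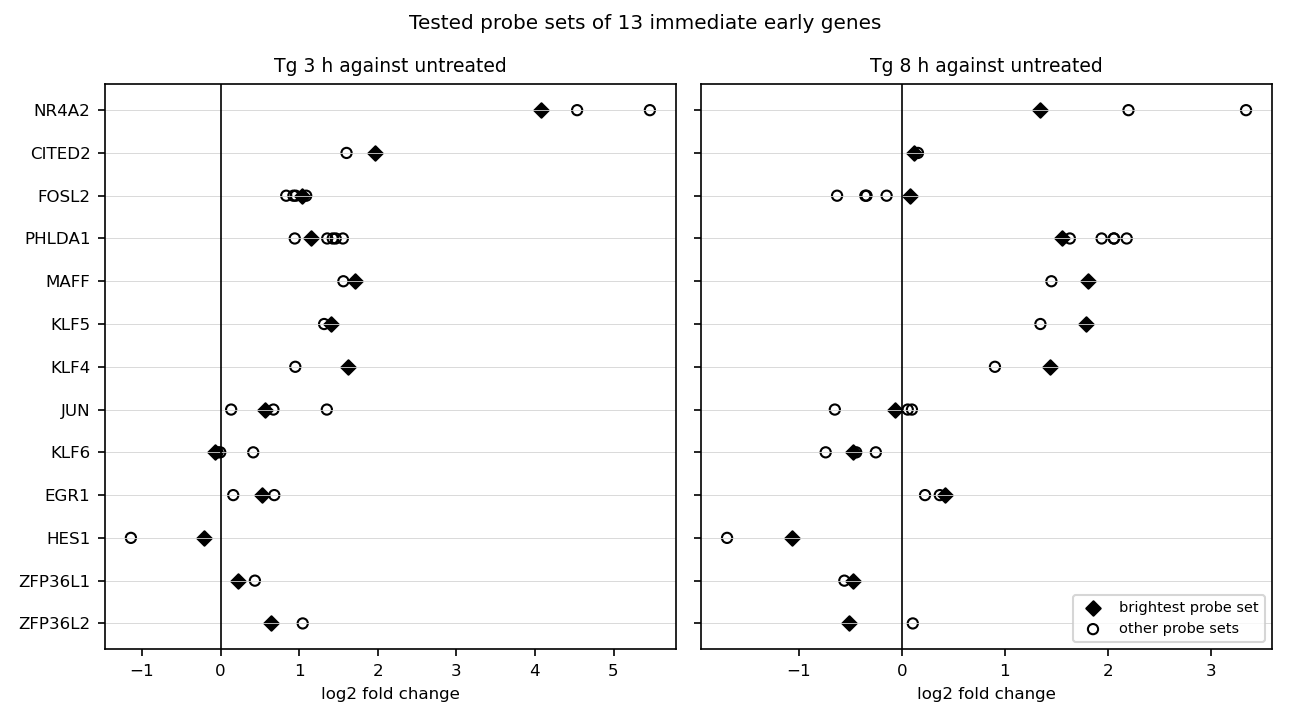
Log2 fold change of every tested probe set of 13 immediate early genes at Tg 3 h (left) and Tg 8 h (right) against untreated cells, with the brightest probe set, which stands for the gene, as a filled diamond and the others as open circles. The 6 probe sets of PHLDA1 all lie at 0.94 or above at 3 h and at 1.55 or above at 8 h, while those of JUN and HES1 spread widely at 3 h.

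FOSB, a further Fos protein, and IER5L were below the signal filter. FOSB had 15.3 and 6.0 in untreated cells, 73.6 and 106.9 after 3 h and 22.0 and 14.3 after 8 h, with its highest signals on both 3 h arrays. IER5L had 15.6 and 9.4 in untreated cells, 74.9 and 20.9 after 3 h and 12.5 and 21.2 after 8 h. No fold change is given for either, since nearly all of their signals were under 100.

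Genes that work with these factors were taken from lists, and each list is described by its counts. None of the 15 partners and relatives of AP-1 passed limma. At an unadjusted p under 0.05, 1 was higher and 1 lower at 3 h, against 3.26% and 1.24% of all genes. At 8 h 3 were higher, against 5.44%. Of this list the blocked fit called ATF3, a stress-induced repressor of the AP-1 family, higher at 3 h (2.28, adjusted p = 0.00742), against 1.17% of all genes. At 8 h it called ATF3 (1.91), NFE2L1 (1.08), ATF2 (0.82) and BACH1 (0.63) higher, against 4.76%. ATF3 had 680.0 and 2723.4 in untreated cells, 5585.3 and 7849.7 after 3 h and 4269.4 and 6087.8 after 8 h. The median of this list was 0.28 at both times. Of 9 cofactors and ETS partners of SRF, 0 passed limma. Without adjustment 1 was higher at 3 h and 2 lower at 8 h, against 3.26% and 6.64% of all genes. MRTFA, the actin-sensing cofactor, was lower at 8 h in the blocked fit (-1.12, adjusted p = 0.00902), against 3.79% of all genes. The medians of this list were 0.01 at 3 h and -0.09 at 8 h.

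The MAP kinase pathway relays growth factor signals to immediate early genes, and its own phosphatases and inhibitors are induced by it. Of 25 such genes tested, 0 passed limma (6 higher at 3 h and 5 at 8 h without adjustment). In the blocked fit DUSP1 (2.15), SPRY4 (1.87), SPRY2 (1.56) and DUSP5 (1.04) rose at 3 h, and SPRY4 (2.02), DUSP5 (1.51) and DUSP6 (0.98) rose at 8 h. All of these encode phosphatases or inhibitors and none a kinase. DUSP1 had 1424.3 and 2349.4 in untreated cells, 9144.4 and 7169.4 after 3 h and 1730.5 and 2610.8 after 8 h, the shape of the transient class. DUSP1 and SPRY2 were lower at 8 h than at 3 h in the blocked fit (-1.93 and -0.93), against 1.72% of all genes. The list's median was 0.20 at both times.

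A wider list of 54 tested early response genes, which also holds ATF3, had a median log2 fold change of 1.02 at 3 h and 0.42 at 8 h. Over all genes the medians were -0.02 and -0.09. The list holds genes that the study reported as higher on these same arrays, CXCL8, IL6, F3, EREG, VEGFA and CCN2 among them. Its median and its shares of calls are thus in part set in advance and are no separate support. Limma called 3 of the 54 genes higher at 3 h, against 0.0701% of all genes. They were CXCL8 (IL-8, 5.88, adjusted p = 0.0198), RCAN1, a calcineurin inhibitor (3.76, 0.0267), and PLAU (urokinase, 1.84, 0.0432). At 8 h it called 5 higher and 3 lower, against 0.646% and 0.210% of all genes. The largest were CXCL8 (4.89, adjusted p = 0.0140), PTGS2 (cyclooxygenase-2, 3.30, 0.0419), RCAN1 (3.27, 0.0152) and ID2, an inhibitor of basic helix-loop-helix factors (-2.81, 0.0207). RCAN1 had 2258.5 and 3361.5 in untreated cells, 49259.7 and 28217.0 after 3 h and 34560.1 and 20423.6 after 8 h, a sustained shape. CXCL8 had 42.3 and 153.8 in untreated cells, 5035.4 and 4468.4 after 3 h and 1853.2 and 3091.3 after 8 h. The blocked fit called 25 higher at 3 h, 21 higher and 7 lower at 8 h, and 17 lower at 8 h than at 3 h, against 1.17%, 4.76%, 3.79% and 1.72% of all genes.

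Few genes of the remaining lists passed. Of 12 other KLF and Sp factors, 0 passed in limma or the blocked fit at either time. Without adjustment limma gave 2 higher at 3 h and 1 at 8 h, against 3.26% and 5.44% of all genes. The medians of these factors were 0.31 and 0.11, against -0.02 and -0.09 over all genes. Of 17 mRNA decay factors, among them deadenylase subunits, decapping enzymes and proteins that bind AU-rich elements, 0 passed limma. Without adjustment 1 was higher at each time, against 3.26% and 5.44% of all genes. CNOT3 was higher at 8 h in the blocked fit (0.85, adjusted p = 0.0118), against 4.76% of all genes. The medians of the 17 were -0.05 and -0.09.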

How the data were processed

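RNA from Daoy cells, untreated or given 1 µM thapsigargin for 3 h or 8 h, was hybridised to 6 human expression arrays, 2 for each condition. The deposited values are the authors' linear MAS5 signal intensities, which they had scaled per array to 1 trimmed mean. The labels' processing notes name MAS5 and no genome build, and no detection call entered the tests. Among 54675 probe sets, the platform annotation names 1 gene for 41097, several for 1801 and none for 11777. Only the first kind was named.

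Signals were log2 transformed and 27616 probe sets with a signal of 100 on at least 2 arrays were fitted in limma 3.58.1 (R 4.3.3; lmFit, eBayes with an intensity trend, two-sided tests, Benjamini-Hochberg adjustment over these probe sets, threshold 0.05). All 6 arrays entered 1 fit with group as the only term. The blocked fit adds the replicate number. The study's methods speak of 2 independent experiments, and the labels do not tie the numbers to them. Deviations of same-numbered arrays from their group means correlated with r of 0.26 to 0.32 over the 27616 probe sets and 0.66 to 0.70 over the 12451 whose mean signal reached 500. The local pooled error test used 100 intensity bins. With 2 arrays per group their number limits the precision, and p-values reflect only how far these arrays differ, which may in part be technical. A gene was read from its probe set with the highest mean log2 signal.

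All 38 members are named. From each further list, the text names at most 4 genes at each time, the largest changes that limma called, or otherwise those of the blocked fit. Members and lists were chosen with earlier results of these data known. Alternatives changed the test, the intensity trend, the normalization, the filter, low signals, the arrays fitted, the probe sets and the threshold. Promoters came from RefSeq (GRCh38.p14) and were searched on both strands over the 250 bases before the start. The fits were also run on simulated data, with 200 of 27616 probe sets moved at 8 h and no deviation shared by replicate number. Of those moved by a log2 fold change of 1, limma, the blocked fit and the local pooled error test each recovered 0. False calls numbered 0, 0 and 12 there. Of those moved by 2 they recovered 36.5%, 21.0% and 43.0%, with 5, 5 and 24 false calls. A gene that passed no test may thus still have changed by 2-fold. Tables and figures were made in Python 3.11.15 with pandas 2.3.3, numpy 2.4.6 and matplotlib 3.10.9.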

Additional observations from a re-analysis of the deposited data

Results flagged for a closer look

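In 4 genes the Tg 3 h arrays both lay above and the Tg 8 h arrays both lay below the untreated arrays. The share of all genes with both traits was not counted. Taken singly, the first held in 14.0% of all genes and the second in 26.7%. On the other tested probe set of NR4A1 the 8 h arrays (113.8 and 75.8) lay above the untreated ones (55.4 and 57.7). On that of ZFP36L2 they overlapped the untreated ones. The log2 fold change of Tg 8 h against Tg 3 h was -3.02 for NR4A1, -2.54 for GEM, -1.17 for KLF10 and -1.15 for ZFP36L2. In the blocked fit (limma with the replicate number as a block) all 4 differences passed (adjusted p = 0.0212, 0.00238, 0.00881 and 0.0123). None passed in limma without the block (adjusted p = 0.306, 0.223, 0.407 and 0.380). The same arrays picked the 4 genes, which sets the sign of the difference and favours a large one. The test is thus no separate support.

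The other values come from probe sets below the signal filter, which no comparison used. FOSB reached a signal of 106.9 on a Tg 3 h array, against 15.3 and 6.0 on the untreated arrays. A further probe set of NR4A3 had 85.0 and 35.3 in untreated cells, 215.4 and 86.9 after 3 h and 23.6 and 4.0 after 8 h. The last NR4A3 probe set, also below the filter, stayed under 100 on all 6 arrays and was lowest at 3 h. It had 79.6 and 58.5 in untreated cells, 3.3 and 46.5 after 3 h and 78.8 and 48.3 after 8 h. A probe set of NR4A1 below the filter had 9.4 and 31.9 in untreated cells, 70.8 and 79.8 after 3 h and 99.9 and 57.7 after 8 h.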

How the results depend on the processing

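At 3 h limma called 0 of the 33 genes higher, against 11 with the replicate block and 5 in the local pooled error test. Leaving out 1 array gave 0 to 2, with GEM called without untreated replicate 1 and KLF4 and CITED2 without untreated replicate 2. At 8 h limma called 2 higher (MAFF and PHLDA1), against 4 with the replicate block, 4 in the local pooled error test, 3 with no filter (KLF5 gained), 1 with a signal of at least 200, 1 when a gene's probe sets were averaged, and 0 without the intensity trend, with median centring, with signals under 100 raised to 100 or with only the 4 arrays compared. Leaving out 1 array gave 0 to 2, the 2 being KLF4 and MAFF without untreated replicate 2. The count lower at 8 h was 0 in limma and 1, HES1, with the replicate block or with each probe set on its own. The count lower at 8 h than at 3 h was 0 in limma, 10 with the replicate block and 3 in the local pooled error test. The counts lower at 3 h and higher at 8 h than at 3 h were 0 in limma and under every alternative counted. Among dimmer probe sets, 1 of PHLDA1 was higher at 8 h than at 3 h in the blocked fit (0.69, adjusted p = 0.0269).

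Settings of the blocked fit were added after seeing the data. Without the intensity trend its counts were 0 in each comparison and direction. With median centring it called 7 higher at 8 h, against 4. Leaving out 1 array gave 3 to 15 higher at 3 h (3 without Tg 3 h replicate 1, 5 without untreated replicate 1), 4 to 7 higher at 8 h (7 without untreated replicate 2), 0 to 4 lower at 8 h and 1 to 11 lower at 8 h than at 3 h (1, GEM, without Tg 3 h replicate 1). The count lower at 8 h was 4 without Tg 8 h replicate 2 (FOS, NR4A1, GEM and HES1) and 0 without Tg 8 h replicate 1, and HES1 was also lost without either untreated array. The cause of these moves was not tested.

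Median centring moved the median over all genes to -0.14 at 3 h, -0.01 at 8 h and 0.14 between 8 h and 3 h, where the 33 genes had 0.64, 0.20 and -0.39. No value that limma called without the block changed sign under any alternative run. Of the calls in the blocked fit, the step of HES1 from 3 h to 8 h changed sign when its probe sets were averaged. These gave -0.87, -0.56 and, below the filter, 1.71. Of 99 values of single genes, counting each comparison, 8 changed sign with median centring (all of 0.19 or less in size), 4 with quantile normalization, 10 when probe sets were averaged and 5 to 8 when 1 array was left out. Levels under a signal of about 100, those of NR4A3, EGR3, ARC, ZFP36, FOSB and IER5L among them, are the least precise.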
